A study of Mus musculus with 8 samples.

Results

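The genes described here are 10 of the major histocompatibility complex (MHC) presentation pathway: B2m, H2-K1, H2-D1, H2-Aa, H2-Ab1, H2-Eb1, H2-DMa, H2-DMb1, Cd74 and Ciita. They were chosen by name for their role, with earlier results of these data known. They are 10 of the 23358 genes in the count table, and all 10 passed the filter on low counts that left 14086 genes to test. RNA-seq libraries were made from mouse hematopoietic stem cells, which reside in bone marrow and give rise to every type of blood cell. The study compared cells with and without Huwe1, which encodes a large HECT-type ubiquitin ligase.

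There were 3 libraries labelled Huwe1 wild type, 3 labelled Huwe1 knockout with Mx1-Cre and 2 labelled Huwe1 knockout with Vav-Cre. Mx1-Cre is a recombinase under an interferon-responsive promoter and was used for induced deletion. Vav-Cre is expressed across blood cells and was used for constitutive deletion. All cells were sorted from bone marrow as Lin-Sca+Kit+CD48-CD150+, were neither cultured nor treated per the labels, and went straight into Trizol. The labels do not say whether the wild type mice carried a Cre or floxed alleles. Strain, age, sex, the inducing agent and the time after induction were not given in the sources used here. Nor is it said whether each library was a separate animal, and p-values therefore reflect just the spread between these samples, which may be technical.

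MHC class I molecules consist of a heavy chain, such as those encoded by H2-K1 and H2-D1, bound to beta-2 microglobulin, the product of B2m, and show peptides from inside the cell to CD8 T cells. Class II molecules pair an alpha with a beta chain (H2-Aa with H2-Ab1, for example) and show peptides from endosomes to CD4 T cells. Cd74 encodes the invariant chain that fills the class II groove until proteases degrade it, H2-DMa and H2-DMb1 encode the chaperone that loads peptide in its place, and Ciita encodes the coactivator that RFX, CREB and NF-Y factors recruit to class II promoters. Class II expression is best known in dendritic cells, B cells and macrophages and has also been described in blood stem and progenitor cells.

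The promoter stretches of 6 of the genes are shown because they hold the elements through which class I and class II genes are known to be controlled. They come from RefSeq promoters (GRCm38.p6), in which 7 of the 10 genes had an entry; H2-Ab1, Cd74 and Ciita did not. Each runs 5′ to 3′ on the gene's own strand. In the first 3, capitals mark a pattern like the X1 box (CTNGNAAC), the X2 box (TGACGTCA) where present, and the Y box (GATTGG), to which NF-Y is known to bind.
H2-Aa: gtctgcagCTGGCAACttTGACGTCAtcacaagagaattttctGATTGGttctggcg
H2-Eb1: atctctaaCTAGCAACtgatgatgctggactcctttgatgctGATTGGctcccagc
H2-DMb1: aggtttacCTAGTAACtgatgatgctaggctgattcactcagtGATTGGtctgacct
These lie at chr17:34287859-34287915 (minus strand), chr17:34305765-34305820 (plus strand) and chr17:34153086-34153142 (plus strand). Between the X1-like pattern and the Y box were 27, 26 and 27 bases.

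In the class I heavy chain genes, capitals mark the core of a kappa-B element (GGGATTCCC) and the short pattern that interferon regulatory factors are known to bind (AANNGAAA, here read on the opposite strand). In B2m they mark AANNGAAA and a Y box.
H2-K1: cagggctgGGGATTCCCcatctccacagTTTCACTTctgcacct
H2-D1: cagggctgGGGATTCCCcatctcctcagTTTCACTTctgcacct
B2m: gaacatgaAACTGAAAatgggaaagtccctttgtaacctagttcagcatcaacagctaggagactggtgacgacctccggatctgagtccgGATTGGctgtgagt
Their positions are chr17:34000422-34000465 (minus strand), chr17:35262916-35262959 (plus strand) and chr2:122147542-122147646 (plus strand). The patterns were written down after the sequences were read and were searched on both strands in the 250 bases before the start of each of 27025 genes. CTNGNAAC occurred in 12.5% of all genes, TGACGTCA in 1.77% and GATTGG in 16.6%. GGGATTCCC occurred in 0.352% and AANNGAAA in 23.9%. Of the 7 genes with an entry, all 7 held GATTGG, 4 held CTNGNAAC (H2-D1 besides the 3 shown), H2-Aa alone held TGACGTCA, and H2-K1 and H2-D1 held GGGATTCCC. AANNGAAA was in 5: B2m, H2-K1, H2-D1, H2-Aa and H2-DMa. A match is a run of letters, not a measured binding site.

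Library totals ranged from 28689765 to 33202926 counts. Levels are given in CPM (counts scaled to library size, with TMM factors). Huwe1 was at 398 to 434 CPM across wild type, 399 to 444 across the Mx1-Cre line and 445 to 490 across the Vav-Cre line, with a log2 fold change of 0.07 ± 0.10 (SE) over both lines (edgeR adjusted p = 0.816). The table holds 1 count per gene, so this checks no deletion of single exons, and groups are called by their labels. The 10 genes listed for the stem cell gate all exceeded 1 CPM in every library. They include Kit, Ly6a (Sca-1) and Slamf1 (CD150), for which the sort selected, and also Cd48, against which it selected and which was at 14.8 to 22.5 CPM.

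The 3 libraries numbered 2 (wild type 2, Mx1-Cre 2 and Vav-Cre 2) stood apart from the other 5 for some of the H2 region genes themselves. Of 25 tested H2 genes, 8 had all 3 of these libraries below all 5 others: H2-Bl, H2-Ea-ps, H2-K2, H2-M2, H2-Q1, H2-Q10, H2-Q2 and H2-Q4. Among all genes tested, 0.653% showed that order. H2-Q10, a secreted class I heavy chain, was at 0.0984, 0.363 and 0.031 CPM in the 3 libraries and at 8.43 to 18.3 in the 5 others. H2-Ea-ps, the class II E alpha chain gene annotated as a pseudogene in the reference strain, was at 0, 1.16 and 0 CPM against 5.92 to 89.3. In the opposite direction H2-DMb1 had all 3 above the 5 others, an order that 0.667% of all genes showed. None of the 8 is among the 10 genes of interest. For some of the 8 Vav-Cre 2 lay nearer the others, as in H2-K2 (12.1 CPM, against 7.09 and 3.99 in wild type 2 and Mx1-Cre 2). H2-T3 divided otherwise. It was at 0.459, 0.508 and 1.05 CPM in wild type 2, Mx1-Cre 2 and Vav-Cre 1, at 13.6 in Vav-Cre 2 and at 11.4 to 19.3 in the rest.

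This split crosses the genotypes, as each group holds 1 of the 3 libraries. H2 genes are highly polymorphic among mouse strains, and reads were counted on 1 reference genome. The part that strain or haplotype had in the split was not tested. Because it was noticed in these data, each fold change printed below for the 10 genes and the pathway lists is also given without the 3 libraries where that ends or makes a call, turns the direction or moves it by over 1.5 times. Reads from near-identical class I genes, and from H2-DMb1 and H2-DMb2, may have been divided or dropped in counting, so single levels of these genes are uncertain.

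**Figure D1:**
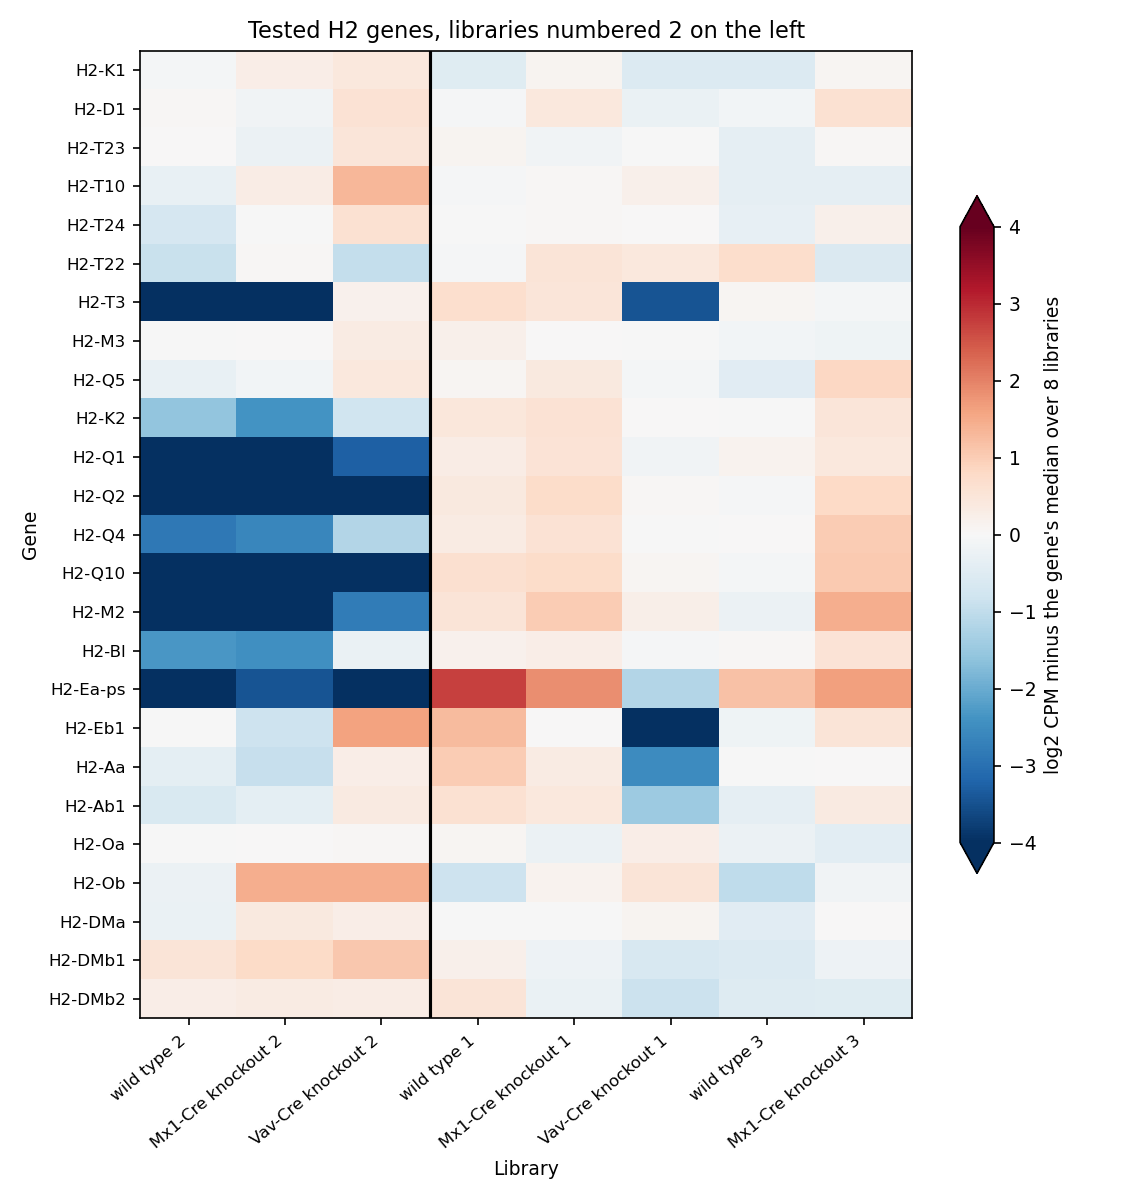
Heat map of the 25 tested H2 genes (rows) in the 8 libraries (columns, with the 3 libraries numbered 2 left of the black line). Colour gives log2 CPM minus the gene's median over the libraries, with values beyond 4 in size drawn in the end colours. H2-Q1, H2-Q2, H2-Q4, H2-Q10, H2-M2 and H2-Ea-ps are low in the 3 libraries on the left, and H2-Eb1, H2-Aa and H2-Ab1 are lowest in Vav-Cre 1.

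Per kilobase of exon, the order of the wild type levels ran from B2m to Ciita. Mean CPM per kilobase was 2359 for B2m, 839 for H2-K1, 240 for H2-D1 and 210 for Cd74. It was 80.6 for H2-Aa, 61.8 for H2-DMa, 29.1 for H2-DMb1, 25.7 for H2-Ab1, 12.8 for H2-Eb1 and 0.39 for Ciita. Neighbours whose wild type ranges overlapped were H2-D1 with Cd74 (228 to 257 and 157 to 310), H2-Aa with H2-DMa, H2-DMb1 with H2-Ab1, and H2-Ab1 with H2-Eb1. Class I transcripts and B2m were thus the most abundant, Cd74 was the most abundant of the class II group, and Ciita was the least. Exon lengths came from GENCODE vM21, which is not the annotation of the counting, so these levels are approximate.

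To ask whether the loss of Huwe1 went with a change in MHC transcripts, both knockout lines were averaged with equal weight against wild type, and each line was also compared alone. Both lines were compared with the same 3 wild type libraries. With both lines averaged, 0 of the 10 genes passed the edgeR quasi-likelihood test at an adjusted p under 0.05, while 373 of all genes tested did (2.65%; 2.1% were lower). At an unadjusted p under 0.05 there were 2 of 10, H2-DMa higher and Cd74 lower, against 16.5% of all genes. DESeq2 and limma-voom also called 0 of 10. The median log2 fold change of the 10 was -0.02 and that of all genes 0. In bulk libraries, fewer cells of a type and less RNA per cell cannot be told apart.

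**Figure D2:**
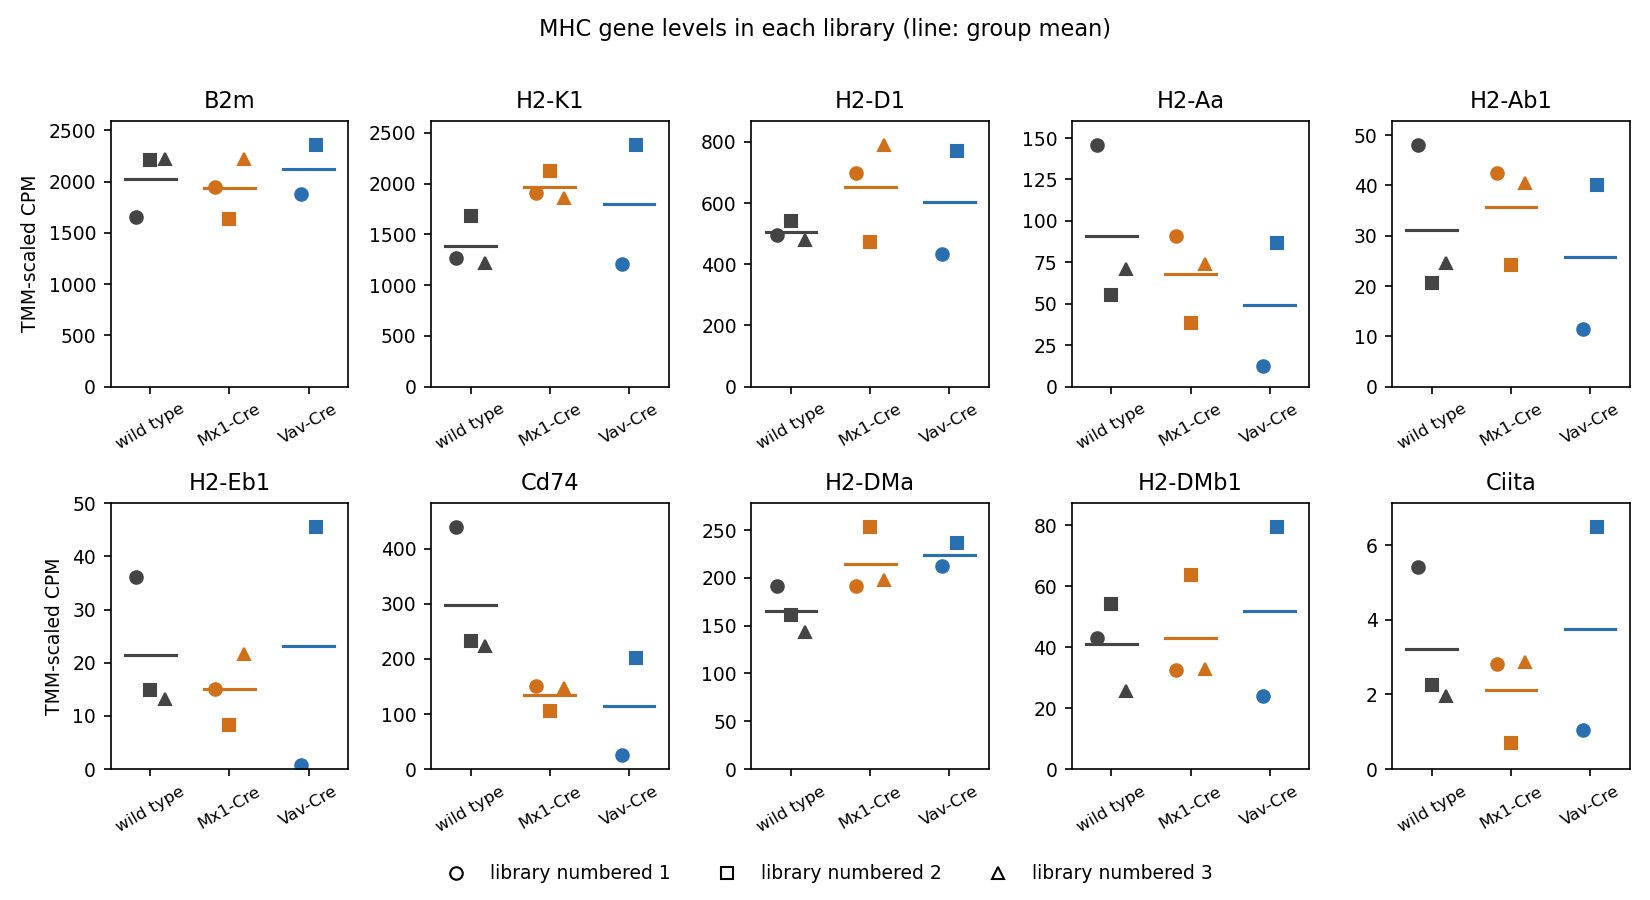
TMM-scaled CPM (y axes from 0) of the 10 genes in each library, by group, with the group mean as a line and the library's number as the marker shape. Cd74 is the gene with all 5 knockout libraries (at most 201) below all 3 wild type libraries (at least 223), and the 2 Vav-Cre libraries lie far apart for the class II chains.

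Among the class II genes, Cd74 had the largest difference. Cd74 was at 439, 233 and 223 CPM in wild type 1, 2 and 3, at 151, 106 and 147 in Mx1-Cre 1, 2 and 3, and at 26.3 and 201 in Vav-Cre 1 and 2. All 5 knockout libraries lay below all 3 wild type libraries, Vav-Cre 1 by far the lowest. The log2 fold change was -1.27 ± 0.48 (SE; 95% interval -2.34 to -0.20) with both lines averaged, which missed the threshold (edgeR adjusted p = 0.218). It was -1.15 ± 0.55 in Mx1-Cre (adjusted p = 0.334) and -1.39 ± 0.64 in Vav-Cre libraries (adjusted p = 0.379). Complete separation of the groups with the knockouts lower was seen for 1 of the 10 genes and for 7.28% of all genes.

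The test of Cd74 turned on single libraries. Without Vav-Cre 2 the averaged value was -2.32 (edgeR adjusted p = 0.00742) and the Vav-Cre value -3.50 (adjusted p = 0.0263), here with Vav-Cre 1 as the only library of its line, assumed to vary like the other groups. Leaving out the 3 libraries numbered 2 gave -2.41 (adjusted p = 0.0045) and, for Vav-Cre, -3.67 (adjusted p = 0.0177). Without Vav-Cre 1 the averaged value was -0.86 (adjusted p = 0.129) and the Vav-Cre value -0.57 (adjusted p = 0.49). The Mx1-Cre value of -1.15 passed when Vav-Cre 1 or Vav-Cre 2 was left out (adjusted p = 0.0442 and 0.044) or only wild type and Mx1-Cre libraries were fitted (0.0439). Over all settings the averaged Cd74 value ranged from -2.41 to -0.86 and was negative in 15 of 15.

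H2-Aa and H2-Ab1 encode the alpha and beta chains of the class II A molecule. H2-Aa was at 146, 55.1 and 71.1 CPM in the wild type libraries, 90.9, 38.4 and 73.7 in those of the Mx1-Cre line, and 12.6 and 86.5 in those of the Vav-Cre line, in order of their numbers. H2-Ab1 was at 48.1, 20.7 and 24.5, at 42.4, 24.1 and 40.5, and at 11.5 and 40.1. For both genes wild type 1 was the highest library, Vav-Cre 1 was the lowest, and the groups overlapped. With both lines averaged, the log2 fold change was -0.65 ± 0.52 for H2-Aa (edgeR adjusted p = 0.612) and -0.03 ± 0.40 for H2-Ab1 (adjusted p = 0.979). Without the libraries numbered 2 that of H2-Aa was -1.76 and passed (adjusted p = 0.0222), as did its Vav-Cre value of -3.13 (adjusted p = 0.0256). H2-Ab1 did not pass there (-0.74, adjusted p = 0.264). Without Vav-Cre 2 the averaged values were -1.64 (adjusted p = 0.0762) and -0.62 (adjusted p = 0.418), and without Vav-Cre 1 they were -0.25 (adjusted p = 0.804) and 0.28 (adjusted p = 0.725).

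H2-Eb1 encodes the beta chain of the class II E molecule and varied most of the 10 genes. It was at 36.2, 14.9 and 13.2 CPM in the wild type libraries, 15.1, 8.38 and 21.6 in those of the Mx1-Cre line, and 0.806 and 45.5 in those of the Vav-Cre line. The Vav-Cre libraries thus held both the lowest and the highest level, 56.5-fold apart, from 23 and 1470 counts. The averaged log2 fold change was -0.20 ± 0.82 (95% interval -2.01 to 1.61, edgeR adjusted p = 0.944). Without the libraries numbered 2 it was -2.69 (adjusted p = 0.0229), without Vav-Cre 2 it was -2.62 (adjusted p = 0.0339), and without Vav-Cre 1 it was 0.29 (adjusted p = 0.794). The Vav-Cre value of 0.12 ± 1.01 turned to -4.95 without the libraries numbered 2 (adjusted p = 0.0292).

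**Figure D3:**
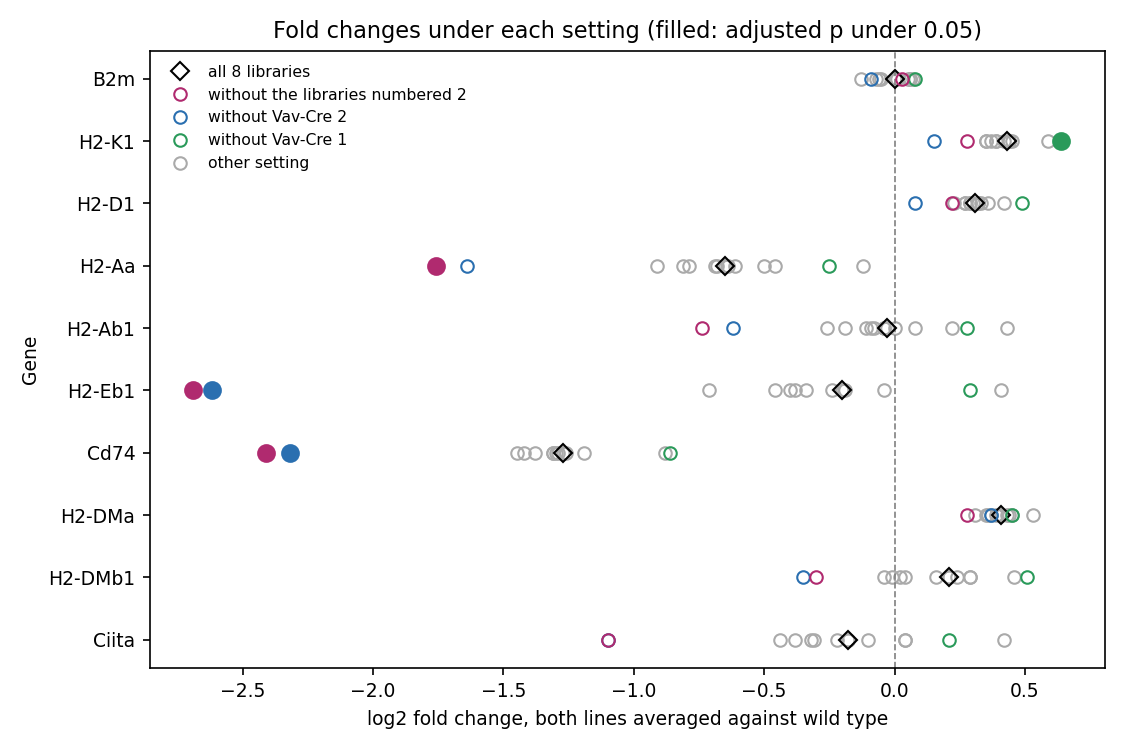
Log2 fold change with both lines averaged (x axis) for each of the 10 genes (y axis) under all 8 libraries (black diamond) and each other setting (circles, filled where the edgeR, DESeq2 or limma-voom adjusted p was under 0.05). Cd74, H2-Eb1 and H2-Aa spread widest and are filled only where Vav-Cre 2 is left out, alone or with the other libraries numbered 2 (H2-Aa only with the latter), and H2-K1 is filled only without Vav-Cre 1 (0.64).

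Ciita, the coactivator gene, was low. Its lowest library was Mx1-Cre 2, not Vav-Cre 1, and its highest was Vav-Cre 2, as for H2-Eb1. Its level was 5.41, 2.26 and 1.96 CPM in the wild type libraries, 2.81, 0.689 and 2.87 in those of the Mx1-Cre line, and 1.05 and 6.48 in those of the Vav-Cre line. These values came from 19 to 209 counts per library, and the groups overlapped. The averaged log2 fold change was -0.18 ± 0.64 (edgeR adjusted p = 0.935), and its interval of -1.61 to 1.24 spans changes of over 2-fold in either direction. Without the libraries numbered 2 the value was -1.10 (adjusted p = 0.402), without Vav-Cre 2 it was -1.10 (adjusted p = 0.434), and without Vav-Cre 1 it was 0.21 (adjusted p = 0.9).

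Over the 8 libraries, log2 levels of H2-Aa, H2-Ab1, H2-Eb1 and Cd74 correlated pairwise at Pearson r = 0.75 to 0.94 and Spearman rho = 0.43 to 0.95, given as a description, since the points share their library and scaling. With Ciita the lowest r was 0.67. Without Vav-Cre 1 alone, r among the 4 genes was 0.28 to 0.82. Without wild type 1 and Vav-Cre 1 it was -0.22 to 0.76 over 6 libraries. These 2 libraries lay farthest from the median of the same genes, so leaving them out narrows the range and can itself lower r. Of 9575 other genes of mean log2 CPM of at least 3, those most like the mean of the 4 were Rcn1 (r = 0.952), Plek (0.947), Nle1 (0.926), Zbtb17 (0.924) and Gtf2ird2 (0.913). Plek, which encodes the platelet and leukocyte protein pleckstrin, was at 88.4 CPM in Vav-Cre 1 and at 281 to 438 in the other 7 libraries.

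The invariant chain was also set against the chains it accompanies, a ratio chosen after its values were seen and therefore given without a test. Counts of Cd74 per count of H2-Aa, H2-Ab1 and H2-Eb1 together were 1.90, 2.57 and 2.05 in the wild type libraries, 1.02, 1.5 and 1.08 in those of the Mx1-Cre line, and 1.06 and 1.17 in those of the Vav-Cre line. The knockout libraries were all below the wild type libraries, and Vav-Cre 1, which had the fewest class II counts, lay within the range of the others. Group means were 2.17 ± 0.352 (SD, n = 3), 1.20 ± 0.262 (n = 3) and 1.12 ± 0.0778 (n = 2). Because every knockout ratio was below every wild type ratio, the same order had to hold among libraries that share a number. Splitting the libraries by number was therefore no separate check of this difference.

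**Figure D4:**
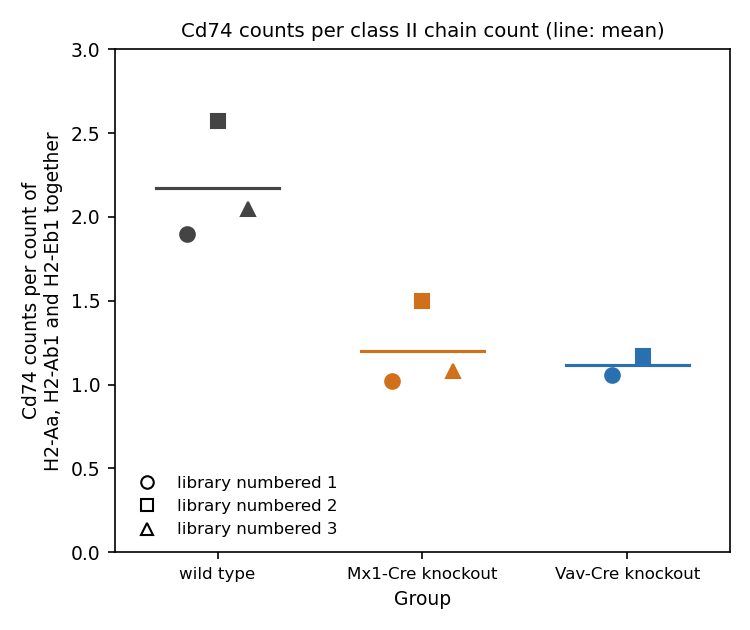
Cd74 counts per count of H2-Aa, H2-Ab1 and H2-Eb1 together (y axis, from 0) in each library by group, with the mean as a line and the library's number as the marker shape. Wild type libraries lie between 1.90 and 2.57 and knockout libraries between 1.02 and 1.5.

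H2-DMa and H2-DMb1 encode the peptide-loading chaperone. H2-DMa was at 191, 161 and 143 CPM in the wild type libraries, 191, 253 and 198 in those of the Mx1-Cre line, and 212 and 236 in those of the Vav-Cre line. All 5 knockout libraries were above the wild type libraries, but Mx1-Cre 1 (191.4) exceeded wild type 1 (190.8) by less than 1 CPM. On library totals alone the order of that pair turned (187 and 195). Of all genes 4.41% were separated in this direction. The averaged log2 fold change was 0.41 ± 0.14 (95% interval 0.10 to 0.72, edgeR adjusted p = 0.178). It was 0.38 ± 0.16 in Mx1-Cre (adjusted p = 0.253) and 0.44 ± 0.17 in Vav-Cre libraries (adjusted p = 0.293), and over all settings the averaged value stayed between 0.28 and 0.53. The Mx1-Cre value was 0.23 without the libraries numbered 2 (edgeR adjusted p = 0.565).

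H2-DMb1 was at 42.9, 54.1 and 25.7 CPM in the wild type libraries, 32.4, 63.7 and 32.7 in those of the Mx1-Cre line, and 24.1 and 79.4 in those of the Vav-Cre line. The library numbered 2 was the highest of each group, and the groups overlapped. Its averaged log2 fold change was 0.21 ± 0.39 (edgeR adjusted p = 0.867), and it was -0.30 without the libraries numbered 2 (adjusted p = 0.652) and -0.35 without Vav-Cre 2 (adjusted p = 0.685). H2-DMa and H2-DMb1 therefore differed in how they followed the library numbers, and over the 8 libraries their log2 levels correlated at r = 0.51 (rho = 0.40).

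Class I transcripts were abundant in every library. B2m was at 1655, 2207 and 2225 CPM in the wild type libraries, 1946, 1639 and 2224 in those of the Mx1-Cre line, and 1877 and 2360 in those of the Vav-Cre line. The groups overlapped, and the highest library was 1.44-fold above the lowest, the narrowest range of the 10 genes. The averaged log2 fold change of B2m was 0.00 ± 0.15 (95% interval -0.33 to 0.32, edgeR adjusted p = 0.997), and 0.03 without the libraries numbered 2.

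H2-K1 was at 1270, 1680 and 1216 CPM in the wild type libraries, 1903, 2126 and 1857 in those of the Mx1-Cre line, and 1205 and 2383 in those of the Vav-Cre line. The Mx1-Cre libraries were all above wild type, while the Vav-Cre libraries held the lowest and the highest level. Its log2 fold change was 0.43 ± 0.20 with both lines averaged (95% interval -0.02 to 0.89, edgeR adjusted p = 0.324), 0.50 ± 0.22 in Mx1-Cre (adjusted p = 0.298) and 0.37 ± 0.25 in Vav-Cre libraries (adjusted p = 0.57). Without Vav-Cre 1 the averaged value was 0.64 and passed (adjusted p = 0.0473), without Vav-Cre 2 it was 0.15 (adjusted p = 0.686), and without the libraries numbered 2 it was 0.28 (adjusted p = 0.356), with -0.05 for Vav-Cre (adjusted p = 0.973).

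H2-D1 was at 496, 540 and 479 CPM in the wild type libraries, 698, 472 and 791 in those of the Mx1-Cre line, and 434 and 770 in those of the Vav-Cre line. Mx1-Cre 1 and 3 and Vav-Cre 2 were above the wild type range, and Mx1-Cre 2 and Vav-Cre 1 were below it. The averaged log2 fold change of H2-D1 was 0.31 ± 0.21 (edgeR adjusted p = 0.519), with 0.49 without Vav-Cre 1 (adjusted p = 0.194) and 0.08 without Vav-Cre 2 (adjusted p = 0.893). Pairwise r among B2m, H2-K1 and H2-D1 was 0.22 to 0.68 over the 8 libraries (rho = 0.14 to 0.60), and 0.15 to 0.59 without Vav-Cre 1. It was -0.14 to 0.44 without Vav-Cre 1 and 2, the libraries farthest from the median of these genes, a choice that can itself lower r. The genes most like their mean were Terf2ip (r = 0.962), Elmsan1, Usf2, Rexo1 and Pex6 (0.942).

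**Figure D5:**
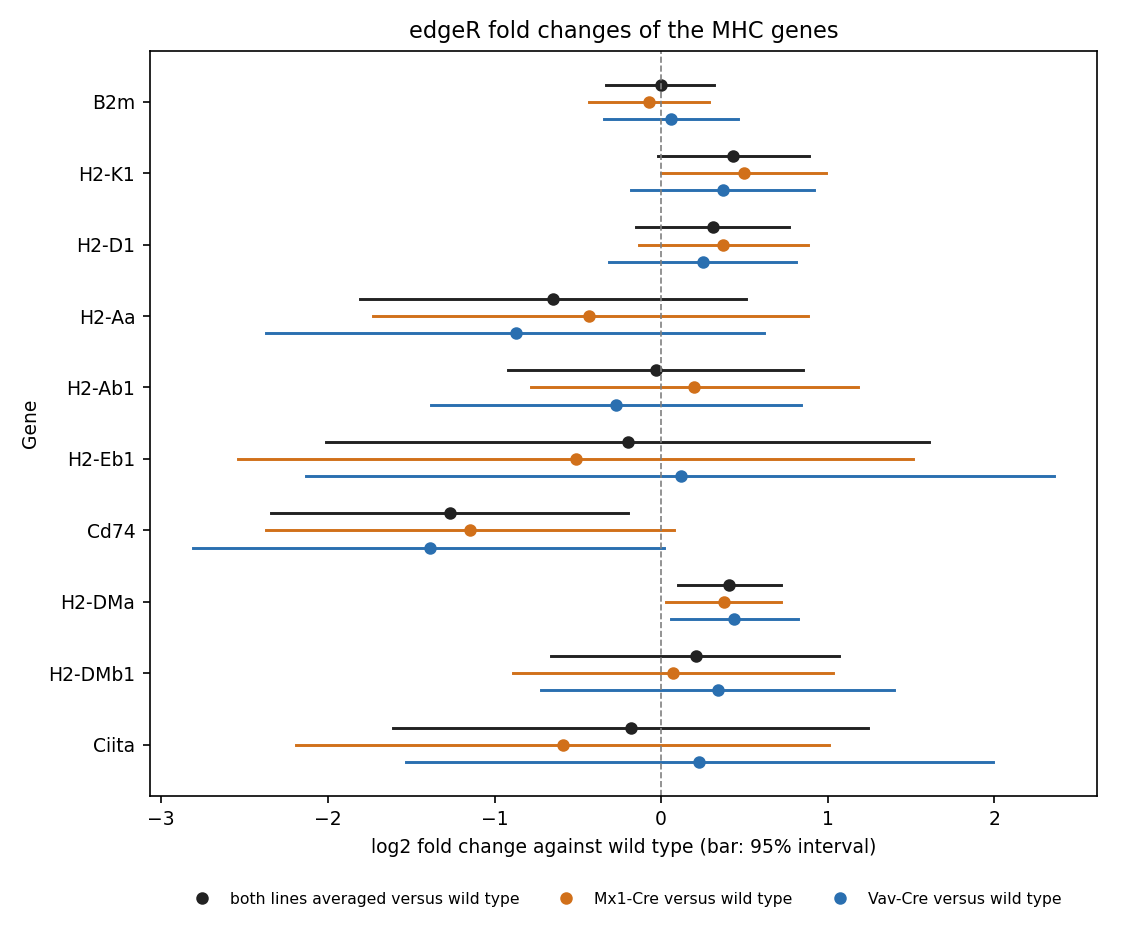
EdgeR log2 fold changes against wild type (x axis) of the 10 genes (y axis) with 95% intervals as bars, for both lines averaged, Mx1-Cre and Vav-Cre. Intervals for both lines averaged leave out 0 for Cd74 (-2.34 to -0.20) and H2-DMa (0.10 to 0.72), and the class II chains and Ciita have the widest intervals.

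In the Mx1-Cre comparison alone, 0 of the 10 genes passed the edgeR test, against 2.49% of all genes (2.1% lower). At an unadjusted p under 0.05 there were 2, H2-DMa and H2-K1, both higher, against 16.6% of all genes. DESeq2 and limma-voom called 0. The groups did not overlap for H2-DMa and H2-K1, which were higher, and for Cd74, which was lower, against 10.9% and 14.8% of all genes in those directions. The remaining 7 overlapped.

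In the Vav-Cre comparison 0 of 10 passed by edgeR, DESeq2 or limma-voom, against 0.511% of all genes by edgeR. At an unadjusted p under 0.05 there was 1, H2-DMa, against 13.4% of all genes. H2-DMa again lay above and Cd74 below wild type without overlap, against 15.6% and 17.1% of all genes (32.8% in either direction). The test of Vav-Cre minus Mx1-Cre called 0 of 10 with each tool, against 0.17% of all genes by edgeR (0.114% higher and 0.0568% lower). At an unadjusted p under 0.05 there were 0, against 13.3% of all genes. Differences between the lines ranged from -0.47 (H2-Ab1) to 0.82 (Ciita) on the log2 scale, and the libraries of the lines overlapped for all 10 genes. The wide intervals mean that the lines were not shown to act alike: for H2-Eb1 the 95% interval of the difference was -1.60 to 2.86.

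Genes that supply or process the ligands of these molecules were examined by list. The lists were chosen with earlier results of these data known. Their counts and medians beside those of all genes are therefore a description, not a test of the list. With both lines averaged, edgeR called 2.65% of all genes. All 5 knockout libraries were below wild type for 7.28% of all genes and above for 4.41%. In class II processing and turnover, 2 of 9 tested genes fell with both lines averaged and 0 rose, where 2.1% of all genes fell. There were 5 at an unadjusted p under 0.05, all lower, where 16.5% of all genes were under it in either direction. The list's median log2 fold change was -0.90, against 0 for all genes. Ctss encodes cathepsin S, a protease that degrades the invariant chain, and was at 19.6, 22.2 and 19.1 CPM in the wild type libraries, 4.38, 6.71 and 8.84 in those of the Mx1-Cre line, and 6.27 and 7.65 in those of the Vav-Cre line. All 5 knockout libraries were below wild type, and Ctss fell (-1.58 ± 0.23, edgeR adjusted p = 0.0113). It missed the threshold without wild type 2 (adjusted p = 0.0798), without wild type 3 (0.0556) and without the libraries numbered 2 (0.0508).

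Ctsl, which encodes the related cathepsin L, was at 27.5, 35.2 and 35.6 CPM in the wild type libraries, 10.8, 14.5 and 11.6 in those of the Mx1-Cre line, and 19.1 and 31.2 in those of the Vav-Cre line. The Mx1-Cre libraries were all below wild type, while Vav-Cre 2 lay within its range. It fell by 0.90 ± 0.20 on the log2 scale with both lines averaged (edgeR adjusted p = 0.0445). The call was lost when any of wild type 1, 2 or 3, Mx1-Cre 1 or 3, or Vav-Cre 1 was left out (adjusted p = 0.0651 to 0.208). In Mx1-Cre libraries alone both fell, Ctss by 1.61 ± 0.27 (adjusted p = 0.0154) and Ctsl by 1.41 ± 0.23 (adjusted p = 0.0135). There the Ctss call was lost on leaving out any wild type library, Mx1-Cre 1 or the libraries numbered 2 (edgeR adjusted p = 0.0523 to 0.0885). The Ctsl call was lost on leaving out wild type 2, wild type 3 or Mx1-Cre 1 (0.0681 to 0.0777). Lgmn, which encodes legumain (-0.91 ± 0.37), and March1, a ubiquitin ligase that downregulates class II and CD86 (-1.37 ± 0.57), did not pass (edgeR adjusted p = 0.251 and 0.266).

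Of the other class II chains, 0 of 4 tested passed the edgeR test, and DESeq2 and limma-voom called 1 each. There was 1 at an unadjusted p under 0.05, against 16.5% of all genes. That gene was H2-Ob, the beta chain of the DM inhibitor DO, at 19.4, 29.3 and 17.3 CPM in the wild type libraries, 38.4, 95.4 and 31.5 in those of the Mx1-Cre line, and 50.2 and 95.3 in those of the Vav-Cre line. All 5 knockout libraries were above wild type, and the log2 fold change was 1.53 ± 0.39 (edgeR adjusted p = 0.0687, DESeq2 0.000544, limma-voom 0.0242). It passed in edgeR with no filter on low counts (0.0259), without Mx1-Cre 2 (0.0391), without Mx1-Cre 3 (0.0424) and without the libraries numbered 2 (1.19, adjusted p = 0.0272). H2-Oa, its partner chain, was at 10.9 to 17.4 CPM with a log2 fold change of 0.03 ± 0.18, and H2-DMb2 had -0.29 ± 0.36 (adjusted p = 0.965 and 0.77), the latter with -0.72 without the libraries numbered 2 (adjusted p = 0.481).

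On the class I side, 0 of 14 genes of peptide supply and loading passed the edgeR test, with 0 by DESeq2 and 1 by limma-voom. There were 2 at an unadjusted p under 0.05, against 16.5% of all genes. Psmb9, an immunoproteasome subunit, was at 107, 136 and 118 CPM in the wild type libraries, 177, 141 and 194 in those of the Mx1-Cre line, and 144 and 167 in those of the Vav-Cre line, all above wild type (0.44 ± 0.14, edgeR adjusted p = 0.15). Tap1, a subunit of the peptide transporter, had 0.64 ± 0.22 (adjusted p = 0.177) and passed without Vav-Cre 1 (0.83, adjusted p = 0.0436). Tap2 had 0.45 ± 0.24 and Psmb8 0.34 ± 0.16 (adjusted p = 0.401 and 0.335). Without the libraries numbered 2, Tap1 had 0.38 (adjusted p = 0.343) and Tap2 0.14 (adjusted p = 0.875).

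Among 17 tested other class I heavy chains, 0 passed the edgeR test, and DESeq2 and limma-voom called 1 each. An unadjusted p under 0.05 was seen for 3, against 16.5% of all genes. Cd1d1, which presents lipids to NKT cells, was at 136, 110 and 109 CPM in the wild type libraries, 76.9, 77.4 and 42.1 in those of the Mx1-Cre line, and 81.2 and 80.3 in those of the Vav-Cre line, all below wild type (-0.70 ± 0.19, edgeR adjusted p = 0.0878, DESeq2 0.0186). It passed in edgeR without Mx1-Cre 3 (-0.59, adjusted p = 0.0435). H2-T10 (0.68 ± 0.25) and H2-T24 (0.52 ± 0.20) did not pass (adjusted p = 0.198 and 0.218), though H2-T10 did without Vav-Cre 1 (0.91, adjusted p = 0.0353). Without Vav-Cre 2 that of H2-T10 was 0.34 (adjusted p = 0.411), and without the libraries numbered 2 both had 0.23 (adjusted p = 0.661 and 0.682). Mr1, which presents vitamin B metabolites, had -0.53 ± 0.26 (adjusted p = 0.359).

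Of the 7 class II transcription factors (RFX, CREB and NF-Y subunits), 0 passed the edgeR test and 0 passed by DESeq2 or limma-voom. An unadjusted p under 0.05 was seen for 1, against 16.5% of all genes. Rfxank had -0.45 ± 0.16 (edgeR adjusted p = 0.203), Nfyb 0.19 ± 0.12, Nfya 0.15 ± 0.12 and Rfx5 0.13 ± 0.16 (0.06 without the libraries numbered 2). Of 12 genes of interferon gamma signalling 0 passed in edgeR, with 2 at an unadjusted p under 0.05 (against the same 16.5%), 0 by DESeq2 and 1 by limma-voom. Irf8, a factor of myeloid and dendritic cell development, had -1.56 ± 0.61, Socs3 0.52 ± 0.62 and Irf9 -0.14 ± 0.10, none of which passed (edgeR adjusted p = 0.233, 0.755 and 0.544). Socs3 had -0.17 without the libraries numbered 2.

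Of 7 tested costimulation genes 1 fell and 0 rose, where 2.1% of all genes fell. There were 2 at an unadjusted p under 0.05, 1 lower and 1 higher, against 16.5% of all genes. Cd86, a ligand of CD28 on T cells, was at 24.1, 16.8 and 11.5 CPM in the wild type libraries, 6.36, 8.45 and 4.76 in those of the Mx1-Cre line, and 5.11 and 1.43 in those of the Vav-Cre line, all below wild type (-1.92 ± 0.39, edgeR adjusted p = 0.0322). The call was lost on leaving out any wild type library, Mx1-Cre 1 or the libraries numbered 2 (adjusted p = 0.0508 to 0.135). Icosl (0.44 ± 0.19), Cd274 (0.36 ± 0.20) and Pdcd1lg2 (0.54 ± 0.35) did not pass (edgeR adjusted p = 0.278, 0.42 and 0.512). Their values were 0.29, 0.06 and 0.09 without the libraries numbered 2.

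Because other cells also express class II, markers of those cells were read beside these genes. Of 12 dendritic cell markers 7 were tested and 3 exceeded 1 CPM in every library, and their summed level was 95 to 118 CPM over the wild type libraries, 53.6 to 128 over the Mx1-Cre line and 71 to 138 over the Vav-Cre line. Most of the sum was Flt3 (42.5 to 115 CPM), which early progenitors also express. The 5 that were too low to test, Itgax, Cd209a, Siglech, Batf3 and Klrd1 (the last also an NK cell gene), had 0 to 19 counts per library, and 0 in Mx1-Cre 2 and 3 and in both Vav-Cre libraries. Among those tested, Clec9a was at 15.2 CPM in Vav-Cre 2 and at 1.31 to 3.58 in the other 7 libraries. Zbtb46 was at 0.682 to 4.05, and Xcr1 and Ccr7 were below 1 CPM in every library. Bst2 was highest in wild type 1 (14 CPM) and lowest in Vav-Cre 1 (1.61), as were H2-Aa and Cd74. Vav-Cre 2 was also low for Bst2 (4.46), with H2-Aa there at 86.5. With both lines averaged, Bst2 had -1.26 ± 0.39 (edgeR adjusted p = 0.132, DESeq2 0.0358, limma-voom 0.101). The sum, being mostly Flt3, cannot gauge how many dendritic cells a library held, and is given beside class II as a description. Wild type 1, where H2-Aa and Cd74 were highest, had a sum of 118, and Vav-Cre 1, where they were lowest, 71. Mx1-Cre 2 had 128 with H2-Aa at 38.4 and Cd74 at 106, and Mx1-Cre 3 had the lowest sum, 53.6, with H2-Aa at 73.7 and Cd74 at 147. B cell markers (9 of 12 tested) summed to 74.1 to 97, 57.5 to 75.3 and 44.7 to 77.9 CPM, with Pax5 at most at 0.309. By edgeR 0 of these dendritic cell and 0 of these B cell markers were called. At an unadjusted p under 0.05 there were 1 and 3, all lower, against 16.5% of all genes in either direction. DESeq2 called 1 and 0, and limma-voom called 0 and 1. Monocyte and macrophage markers (11 of 12 tested) summed to 324 to 426, 294 to 326 and 272 to 325 CPM. In that list all 11 log2 fold changes were negative with both lines averaged (median -1.65). There were 6 at an unadjusted p under 0.05, all lower, against 16.5% of all genes in either direction. DESeq2 called 3 and limma-voom 2. Ly6c2 had -1.89 ± 0.56 (edgeR adjusted p = 0.118, DESeq2 0.0116, limma-voom 0.0154). C1qb had -1.83 ± 0.50 (edgeR adjusted p = 0.091, DESeq2 0.00996, limma-voom 0.0772). By edgeR, Vcam1 alone fell in this list (-1.76 ± 0.37, edgeR adjusted p = 0.0353). The Vcam1 call was lost when wild type 2, wild type 3, Mx1-Cre 1 or Vav-Cre 2 was left out, or without the libraries numbered 2 (0.0593 to 0.205), and Lyz2, its most abundant gene, had -0.17 ± 0.13 (adjusted p = 0.572). T and NK cell markers (3 of 10 tested) summed to 126 to 186, 109 to 140 and 77.9 to 111 CPM, most of it Nkg7 (52.7 to 166 CPM). Of these, 0 were called by edgeR, DESeq2 or limma-voom. At an unadjusted p under 0.05 there were 2, both lower, against 16.5% of all genes in either direction. These were Cd4 (-2.36 ± 1.01) and Nkg7 (-0.64 ± 0.21), while Lck had 0.09 ± 0.21. What part such cells had in the levels of Cd74, Ctss, Cd86 and the class II chains was not tested.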

How the data were processed

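Per the submitters' processing notes, reads were handled with TopHat, SAMtools, HTSeq and edgeR on mm9, with no versions. SMARTer Ultra Low Input cDNA went into unstranded NEBNext libraries, per the labels' protocols. The authors deposited unnormalised counts of reads for each gene symbol in 8 libraries. Annotation and strand setting: not given in the sources used here. A deposited CPM table was not used.

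Counts were tested in R 4.3.3 with edgeR 4.0.16 (filterByExpr, minimum count 10 and total 15; TMM; quasi-likelihood fit to the 8 libraries, with a group term and no covariate). SE is the log2 fold change over the square root of F. Adjusted p is Benjamini-Hochberg over 14086 genes, called under 0.05. Levels are TMM-scaled CPM; correlations and the heat map used log2 CPM with a prior count of 2. Alternatives were DESeq2 1.42.0, limma-voom 3.58.1 with quality weights, other scaling, no filter, only the groups compared, a replicate block and each library left out. Leaving out the libraries numbered 2 was chosen after seeing the data.

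The genes and lists were chosen with earlier results of these data known. Named were all 10 genes, up to 4 per list with the smallest p in any comparison, Huwe1, and the 5 genes most alike in pattern. Vcam1, Lyz2, Bst2, Ly6c2, C1qb, Plek's levels and H2-Q10 were named after their values were seen. Some results that the rule would name are not reported here. The test was also run on simulated counts. Within groups, libraries differed by a chi-square per degree of freedom of 27.5 to 127, so none was taken for a repeat. Total counts of 28689765 to 33202926 are reads without molecular identifiers.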

Additional observations from a re-analysis of the deposited data

Results flagged for a closer look

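Slamf1, which encodes the CD150 used in the sort, was the one listed gene called by edgeR in the direct test between the lines, as it was by limma-voom. DESeq2 called Slamf1 (adjusted p = 8.45e-08) and also Procr (0.000809), Ebf1 (0.00165), Ctsl (0.0134), C1qb (0.0166) and Cd79a (0.0367). It was at 68.4, 62.8 and 67.3 CPM in the wild type libraries, 49, 53.6 and 58.1 in those of the Mx1-Cre line, and 105 and 108 in those of the Vav-Cre line. Vav-Cre minus Mx1-Cre was 0.99 ± 0.14 on the log2 scale (SE, edgeR adjusted p = 0.0346), with the lines not overlapping. The value was 0.93 to 1.05 over 16 other settings, of which 6 passed. The call was lost when any 1 library other than Vav-Cre 1 was left out, with only the groups compared, with the replicate block and without the libraries numbered 2 (adjusted p = 0.0504 to 0.166).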

How the results depend on the processing

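Over the alternatives, the 10 genes' log2 fold changes in the comparisons with wild type gave 470 values. Of these 410 kept their direction and side of the threshold, 12 newly passed it with the same sign, 48 changed sign and 0 lost a call. Among the 48, 1 also passed (H2-Eb1 in Vav-Cre without the libraries numbered 2). Counting limits mainly Ciita (19 counts in its lowest library) and H2-Eb1 in Vav-Cre 1 (23 counts). On library totals the median of all genes moved by at most 0.079 in size, and 30 of 30 group mean levels moved by less than 1 SD.

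Genes called numbered 373, 351, 72 and 24 in the averaged, Mx1-Cre, Vav-Cre and Vav-Cre minus Mx1-Cre comparisons. DESeq2 called 953, 1042, 593 and 462, and limma-voom called 992, 1815 and 10 in the averaged, Mx1-Cre and last comparisons. No filter gave 174 for Vav-Cre and 81 for the last. Fitting only the groups compared gave 575, 111 and 3, with 1 of the 10 genes (Cd74) called in Mx1-Cre. Leaving out 1 library gave 22 to 502, 58 to 565, 5 to 196 and 3 to 412. The 10 genes then had 0 to 2 calls averaged, 0 to 1 in Mx1-Cre and 0 to 1 in Vav-Cre. Without the libraries numbered 2, 217 genes were called averaged and 46 in Vav-Cre, among them 3 of the 10 in each (Cd74, H2-Aa and H2-Eb1).

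Sign changes fell on genes far from the threshold, except H2-Eb1 in Vav-Cre (-4.95 without the libraries numbered 2, adjusted p = 0.0292); the cause was not tested. Without those libraries H2-DMb1 was -0.30 averaged, -0.07 in Mx1-Cre and -0.52 in Vav-Cre, B2m 0.12 in Mx1-Cre and -0.06 in Vav-Cre, and in Vav-Cre H2-K1 was -0.05, H2-D1 -0.18 and Ciita -1.82. With limma-voom, H2-Ab1 was 0.22 and Ciita 0.04 averaged, H2-Aa 0.12 and H2-DMb1 -0.12 in Mx1-Cre, and B2m -0.01 and H2-Eb1 -1.28 in Vav-Cre. H2-DMb1 in Mx1-Cre was -0.01 on library totals. Leaving out 1 library gave, averaged, H2-Ab1 -0.62 to 0.43, H2-Eb1 -2.62 to 0.41, H2-DMb1 -0.35 to 0.51 and Ciita -1.10 to 0.42. In Mx1-Cre it gave B2m -0.19 to 0.05, H2-Aa -0.70 to 0.10, H2-Ab1 -0.03 to 0.66, H2-Eb1 -0.87 to 0.10, H2-DMb1 -0.32 to 0.32 and Ciita -0.87 to 0.01. In Vav-Cre it gave B2m -0.11 to 0.22, H2-K1 -0.20 to 0.78, H2-D1 -0.22 to 0.61, H2-Ab1 -1.44 to 0.37, H2-Eb1 -4.72 to 1.09, H2-DMb1 -0.76 to 0.96 and Ciita -1.61 to 1.01. Among other genes, averaged, H2-Oa was -0.02 on library totals and -0.06 to 0.10 with 1 library left out, and Socs3 was -0.17 without the libraries numbered 2 and -0.02 to 0.83 with 1 left out.

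The replicate block called 218, 20 and 9 genes in the averaged, Vav-Cre and Vav-Cre minus Mx1-Cre comparisons. Under it H2-DMb1 was -0.01 averaged and -0.05 in Vav-Cre, H2-Eb1 -0.14 in Vav-Cre, and H2-Oa and Socs3 -0.02 averaged. Deviations of same-numbered libraries correlated at -0.07 to 0.13, too low to pair the samples over all genes, and the labels give no shared source, so no pairing was assumed. In the H2 region those numbered 2 did stand apart together (8 of 25 genes all below the others). Vcam1 missed the threshold under the block (adjusted p = 0.0655).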
